A study of Mus musculus with 2 samples.

Results

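Far intergenic peaks are the DNase I hypersensitive sites that lay outside every annotated gene, over 1 kb from any transcription start site (TSS) and over 50 kb from the nearest TSS of a protein-coding gene. The peak's midpoint was set against GENCODE mouse release M21 on chromosomes 1 to 19. In replicate 1, 2310 of 28969 autosomal peaks met this rule, and in replicate 2, 8678 of 64912 did. The lists held 29700 and 66512 peaks over all chromosomes.

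The peaks come from DNase-seq of frontal cortex of female B6CASTF1/J mice, the F1 of a cross of B6 and CAST strains, at 36 days of age. The labels name 1 group with 2 biological replicates, each with its own tissue record, and no treatment. Both records carry 1 donor label, so the replicates may or may not stem from different animals, and the spread between them may be technical in part. With 2 samples a two-sided sign-flip permutation test over samples cannot give a p below 0.5, so what follows describes the values and tests none of them.

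DNase I cuts nuclear DNA where nucleosomes leave it exposed, and a short stretch inside such a site that is cut less than its surroundings is called a footprint, the trace that a bound protein can leave. Accessible sites far from genes include enhancers, which act on promoters over long distances through chromatin loops. They also include sites of CTCF, a zinc finger protein that together with cohesin anchors loops and bounds domains. Gene deserts, long stretches without protein-coding genes, are known to hold enhancers of the developmental and neural genes at their borders.

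The signal of a peak was normalized to read depth by the authors. All its values below 5 were whole multiples, within 0.05 steps, of 0.0118 in replicate 1 and of 0.00971 in replicate 2, and the median far intergenic peak held 78 and 79 steps. The depth is unknown, since no library total was used here. Of 30 transcription factor genes of cortical projection neurons, 15 in replicate 1 and 25 in replicate 2 had a peak midpoint within 500 bp of a TSS, Neurod6 and Tbr1 in both. The counts were 5 and 12 of 22 genes for inhibitory neurons, 9 and 15 of 20 for astrocytes, 5 and 11 of 20 for the oligodendrocyte lineage, 4 and 5 of 19 for microglia and 1 and 5 of 20 for vascular cells, beside 19 and 20 of 20 activity-regulated genes and all 18 housekeeping genes. Of all 20780 autosomal protein-coding gene symbols, 51.6% in replicate 1 and 60.7% in replicate 2 had such a peak. Gad1, Csf1r and Cldn5, which define inhibitory neurons, microglia and endothelium, had none in either replicate.

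The following far intergenic regions show what such a site looks like in sequence. All are printed 5′ to 3′ on the plus strand of GRCm38 (mm10), in lower case, with the footprints deposited for the printed replicate in capitals. The first group holds the shared peaks of highest signal with a CTCF consensus match inside a footprint of both replicates. They lie at chr2:77342061-77342220 (nearest protein-coding gene Sestd1), chr16:8883781-8883940 (1810013L24Rik) and chr4:9135881-9136080 (Clvs1), and are printed for replicate 1. The match covers bases 129 to 140 of the Sestd1 region on the minus strand, bases 42 to 53 of the 1810013L24Rik region and bases 88 to 99 of the Clvs1 region on the plus strand, and all of it is in capitals in each.
Sestd1 region: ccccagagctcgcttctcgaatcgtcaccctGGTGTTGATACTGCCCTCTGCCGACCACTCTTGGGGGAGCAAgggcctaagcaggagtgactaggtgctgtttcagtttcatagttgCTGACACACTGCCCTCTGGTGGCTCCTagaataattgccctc
1810013L24Rik region: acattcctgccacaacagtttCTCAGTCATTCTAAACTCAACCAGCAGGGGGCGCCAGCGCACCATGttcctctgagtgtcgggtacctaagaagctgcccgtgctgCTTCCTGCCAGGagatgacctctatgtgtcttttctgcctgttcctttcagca
Clvs1 region: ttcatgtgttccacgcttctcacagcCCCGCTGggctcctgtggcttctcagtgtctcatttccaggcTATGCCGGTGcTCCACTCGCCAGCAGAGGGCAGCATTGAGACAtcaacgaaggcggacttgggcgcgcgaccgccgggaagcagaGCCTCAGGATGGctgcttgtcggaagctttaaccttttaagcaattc

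The second group holds the shared peaks of highest signal in which another listed motif lies inside a footprint of both replicates. They are at chr8:126666501-126666780 (nearest gene Irf2bp2), chr10:126511601-126511820 (Atp23) and chr2:174932761-174933040 (Gm14444), again for replicate 1. The Irf2bp2 region has matches of the nuclear factor I (NFI) consensus at bases 141 to 155 and 191 to 205. Both lie outside the replicate 2 peak that overlaps this region most, at chr8:126666461-126666640. The Atp23 region has the AP-1 motif TGANTCA at bases 38 to 44, outside a footprint, and at bases 115 to 121, inside one; 17.9% of the 31-base words of this peak occur more than once in the mouse assembly. The Gm14444 region has the neurogenic E-box CAGATGG on the minus strand at bases 102 to 108.
Irf2bp2 region: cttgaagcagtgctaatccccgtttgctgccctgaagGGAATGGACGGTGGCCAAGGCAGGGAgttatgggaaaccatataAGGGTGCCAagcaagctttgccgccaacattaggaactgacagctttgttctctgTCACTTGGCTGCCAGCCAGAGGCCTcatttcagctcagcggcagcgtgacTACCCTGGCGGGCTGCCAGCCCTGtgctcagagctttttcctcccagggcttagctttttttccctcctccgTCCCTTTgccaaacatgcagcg
Atp23 region: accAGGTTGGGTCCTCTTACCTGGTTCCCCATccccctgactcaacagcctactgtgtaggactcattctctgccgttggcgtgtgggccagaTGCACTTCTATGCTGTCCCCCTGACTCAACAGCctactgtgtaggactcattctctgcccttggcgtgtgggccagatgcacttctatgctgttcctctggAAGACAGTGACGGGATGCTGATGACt
Gm14444 region: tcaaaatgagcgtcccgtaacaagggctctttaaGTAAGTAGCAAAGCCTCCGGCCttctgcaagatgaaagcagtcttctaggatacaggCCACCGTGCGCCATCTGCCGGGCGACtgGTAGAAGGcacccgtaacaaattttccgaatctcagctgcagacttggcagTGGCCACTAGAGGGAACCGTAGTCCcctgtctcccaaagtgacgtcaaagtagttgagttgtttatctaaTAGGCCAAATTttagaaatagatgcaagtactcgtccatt

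The last pair shows a very distant site and one without a counterpart. The Cdh20 region, at chr1:102628161-102628360 and printed for replicate 1, had the second highest signal of the far intergenic peaks of replicate 1 and the third highest of replicate 2 and lay 2140.3 kb from the nearest protein-coding TSS. The Hivep2 region, at chr10:14210501-14210740, is printed for replicate 2. It had one of the highest signals among the far intergenic peaks of replicate 2 with no counterpart in the other library.
Cdh20 region: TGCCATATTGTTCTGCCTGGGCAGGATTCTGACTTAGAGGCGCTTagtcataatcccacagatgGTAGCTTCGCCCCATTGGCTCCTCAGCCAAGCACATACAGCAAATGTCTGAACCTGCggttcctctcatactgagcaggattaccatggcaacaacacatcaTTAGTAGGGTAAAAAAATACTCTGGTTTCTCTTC
Hivep2 region: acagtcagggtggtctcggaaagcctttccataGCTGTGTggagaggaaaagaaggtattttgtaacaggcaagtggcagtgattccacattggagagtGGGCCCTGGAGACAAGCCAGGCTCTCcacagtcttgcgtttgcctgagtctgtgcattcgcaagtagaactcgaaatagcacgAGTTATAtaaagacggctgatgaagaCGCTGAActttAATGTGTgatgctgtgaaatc

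The first question was how often accessible sites occur so far from genes. Positions that meet the rule made up 784 Mb, or 32.7% of the 2396 Mb of sequenced autosomes, and held 7.97% of the autosomal peaks in replicate 1 (95% Wilson interval 7.67 to 8.29%) and 13.4% in replicate 2 (13.1 to 13.6%), with 10.7 ± 3.81% as their mean and SD (n = 2). Intervals here and below cover counting error only. This is 2.95 and 11.1 far intergenic peaks per Mb, against 16.5 and 34.9 peaks per Mb in the rest of the autosomes. The density in intergenic sequence at 50 kb or less from a protein-coding TSS was 9.42 and 23.8 per Mb, and inside genes over 1 kb from a TSS it was 5.83 and 20.8 per Mb. Accessible sites were therefore sparsest in the far territory in both replicates, and replicate 2 listed more of them than replicate 1. The count with a limit of 25 kb was 3496 and 11817, and with a limit of 100 kb 1407 and 5713.

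Far intergenic peaks had lower signal than the rest of their list. The median was 0.919 for replicate 1 and 0.767 for replicate 2, which average 0.843 ± 0.107 (SD, n = 2). All other autosomal peaks had medians of 1.40 and 1.27, averaging 1.34 ± 0.0920. Near intergenic peaks, at 50 kb or less, had 1.27 and 1.17, and peaks inside genes but over 1 kb from a TSS had 1.14 and 1.04. Peaks within 1 kb of a TSS had 1.65 and 1.76. Far intergenic peaks were thus the lowest of the 4 position classes in both replicates, at a median rank percentile of 23.9 and 25.5 in their own list. In bulk tissue, a site accessible in few cells cannot be told apart from one that is weakly accessible in many.

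The upper end of the list was thinly populated. In the highest of 10 signal bins of each list lay 43 far intergenic peaks of replicate 1 (1.86%) and 67 of replicate 2 (0.772%), whereas the lowest bin held 665 (28.8%) and 2220 (25.6%). Of other autosomal peaks, 10.7% and 11.4% were in the highest bin and 8.37% and 7.60% in the lowest. Far intergenic peaks had a median width of 160 and 184 bp, against 200 and 201 bp for the others; near intergenic peaks had 172 and 182.5 bp and gene-body distal peaks 160 and 183 bp. Of the far intergenic peaks, 66 and 383 were at least 400 bp wide. Peaks just inside and just outside the 50 kb limit were close in signal: those at 50 to 60 kb (245 and 752 peaks) had a median signal of 1.08 and 0.961, and near intergenic peaks at 40 to 50 kb (361 and 1009 peaks) had 1.07 and 0.971.

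**Figure D1:**
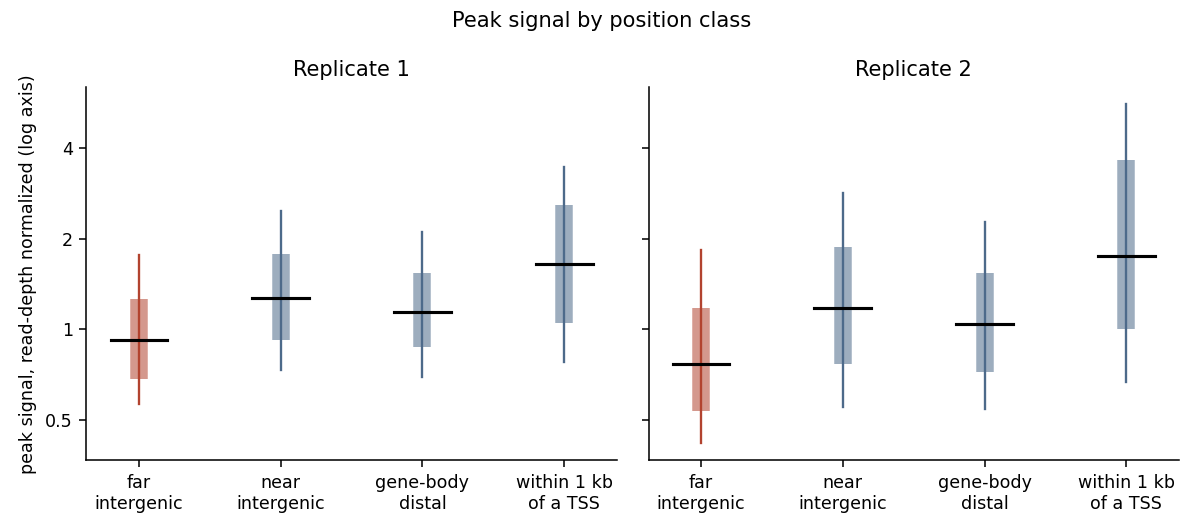
Signal of autosomal peaks by position class in each replicate, on a log axis in read-depth normalized units. Black lines are medians, bars run over the middle quartiles and thin lines from the 10th to the 90th percentile; far intergenic peaks have the lowest median, 0.919 and 0.767.

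The design allows a comparison between the replicates. Nearly all far intergenic peaks of replicate 1 were found again: 2213 of 2310 (95.8%, interval 94.9 to 96.5%) overlapped a peak of replicate 2 by at least 1 bp, where 92.5% of all autosomal peaks of replicate 1 did. In the other direction 2198 of 8678 (25.3%, 24.4 to 26.3%) overlapped a peak of replicate 1, where 40.7% of all autosomal peaks of replicate 2 did. The share was thus above that of the whole list in replicate 1 and below it in replicate 2. For the other autosomal peaks alone it was 92.3% and 43.0%. An overlapping peak was itself far intergenic in 2212 of the 2213 and 2194 of the 2198 cases.

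Sharing followed the signal, and far intergenic peaks sit low in both lists. In the lowest signal bin 89.9% of the far intergenic peaks of replicate 1 were shared and 67.3% of the other peaks, and in the same bin of replicate 2 the values were 2.12% and 2.97%. In the ninth bin of replicate 2 they were 96.8% and 90.4%. Far intergenic peaks were shared more often than the others in 10 of 10 bins in replicate 1 and in 9 of 10 bins in replicate 2. If the other peaks were spread over the bins as the far intergenic peaks are, 84.2% and 20.8% of them would be shared, against 95.8% and 25.3% of the far intergenic peaks. By class this would be 89.8% and 20.4% for near intergenic, 87.5% and 16.9% for gene-body distal and 80.5% and 26.1% for peaks within 1 kb of a TSS. Far intergenic peaks were shared more often than gene-body distal peaks in 6 of 10 bins of replicate 1. In the ninth and highest bins of replicate 1 both classes were at 100%. Far intergenic peaks were shared more often than peaks within 1 kb of a TSS in 5 of 10 bins of replicate 2. The direction of the difference in replicate 2 therefore depends on signal and on the class compared.

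**Figure D2:**
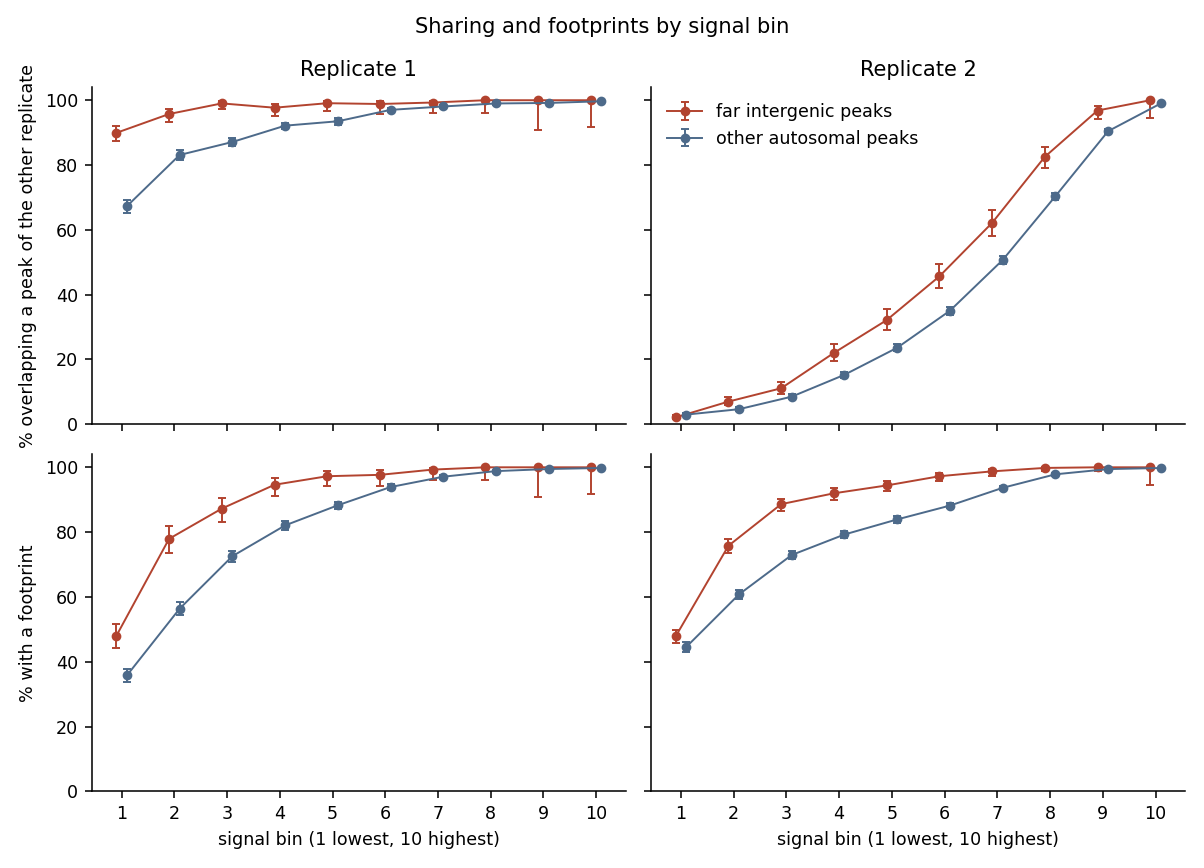
Share of peaks that overlap a peak of the other replicate (upper panels) and share with a footprint (lower panels), in percent, over 10 bins of equal size by signal within each list, for far intergenic peaks and other autosomal peaks. Bars are 95% Wilson intervals; in replicate 2 sharing of far intergenic peaks runs from 2.12% in the lowest bin to 100% in the highest, and 47.8% to 100% of them hold a footprint.

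The lists differ in length, which bears on these shares. When the list of replicate 2 was shortened to its 28969 highest autosomal peaks, 1780 far intergenic peaks were left in it (6.14%). Then 57.1% of the far intergenic peaks of replicate 1 and 73.4% of those left in replicate 2 were shared, against 77.5% and 74.3% of other peaks. Far intergenic peaks of replicate 1 were thus found again less often than other peaks at equal list length. The list was cut by signal, in which far intergenic peaks sit low, so this is not a comparison at like signal. Near intergenic peaks were shared in 76.5% and 68.9% and gene-body distal peaks in 72.4% and 57.7%. Peaks within 1 kb of a TSS were shared in 79.65% and 84.1%. Among those left in replicate 2, far intergenic peaks were thus above the near intergenic and gene-body distal ones. A stricter overlap of 50% of both peaks gave 67.5% and 17.98%.

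Peaks without a counterpart were mostly weak but not all were without cleavage in the other library. The 97 far intergenic peaks of replicate 1 alone had a median signal of 0.624, and 86 of them (88.7%) held a position with an authors' false discovery rate (FDR) of 0.05 or less in replicate 2, close to the 87.0% of all unshared autosomal peaks of replicate 1. The 6480 of replicate 2 alone had a median of 0.651, against 1.48 for its shared far intergenic peaks. Of these 6480, 2990 (46.1%) held such a position in replicate 1 and 2556 (39.4%) overlapped a peak of the longer list deposited for it, where 50.5% and 42.8% of all unshared autosomal peaks of replicate 2 did. The highest without a counterpart in replicate 2 were 2 regions near Camk2n1, an inhibitor of the kinase CaMKII, and Cstad, with a signal of 3.18 and 3.06, and the Hivep2 region printed above, with 2.76, which held 5 footprints and no such position in replicate 1. In replicate 1 the highest lay near Camk2n1 (1.602), Nfe2l3 (1.41) and Tmem161b (1.38).

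At the 2213 shared sites the signal was higher in replicate 2 in 2071 cases (93.6%). The median log2 ratio of replicate 2 over replicate 1 was 0.63 (quartiles 0.36 and 0.88), or 1.55-fold, and at the other shared autosomal peaks it was 0.69. The log2 signals of the pairs had a Pearson r of 0.85 over the 2213 pairs, which share libraries and are not independent. The pairs with the highest ratio were weak in replicate 1: near Grxcr1 the values were 0.412 in replicate 1 and 1.57 in replicate 2, near Adgrl3 0.518 and 1.87, and near Marcks 0.613 and 2.20. The pairs with the lowest ratio lay near Zfp521 (1.77 and 0.621), Defb33 (1.12 and 0.641) and Ezh2 (2.09 and 1.22), and 79.6%, 90.3% and 100% of the 31-base words of these peaks occur more than once in the mouse assembly, against none in the pairs with the highest ratio. The part of repeated sequence in the ratio was not tested.

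Most far intergenic peaks held footprints. In replicate 1, 1817 of 2310 (78.7%, 76.9 to 80.3%) held the midpoint of at least 1 footprint, where 83.3% of all autosomal peaks did, and in replicate 2, 6891 of 8678 (79.4%, 78.5 to 80.2%) did, where 83.2% of all did. The mean was 79.03 ± 0.530% (SD, n = 2), against 83.8 ± 0.0438% of other autosomal peaks. Near intergenic peaks had the highest share, 88.7% and 87.8%. The far intergenic share was thus lower than that of the other peaks by more than the spread between replicates. In the far intergenic peaks lay 4069 and 16955 different footprints, with a median width of 9 bp. At least 3 footprints were present in 606 peaks of replicate 1 (26.2%) and 2851 of replicate 2 (32.9%), where 43.0% and 44.6% of all autosomal peaks had as many.

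The share with a footprint rose with signal, as sharing did. It was 48.0% and 47.8% in the lowest signal bin and 100% in the highest bin of both replicates. At matched bins far intergenic peaks held a footprint more often than other peaks in 10 of 10 bins of each replicate, and other peaks spread over the bins in the same way would reach 67.0% and 70.5%. Near intergenic peaks alone would reach 76.6% and 77.5%, closer to the far intergenic values of 78.7% and 79.4%. Footprint density over the whole lists, not matched by signal, was 10.3 and 10.1 per kb of peak, against 11.6 and 11.7 per kb in other peaks. Within signal bins it was lower than in other peaks only in the ninth and highest bins of replicate 1 and the highest of replicate 2. In the fifth bin it was 11.6 and 11.2 per kb, against 9.59 and 9.26 in other peaks. Near intergenic peaks had 11.6 and 11.2 per kb in that bin. Peaks with a footprint had a median signal of 1.03 and 0.884 and those without one 0.636 and 0.476. They also differed in sharing, 98.5% and 30.8% with a footprint against 86.0% and 4.09% without.

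Footprints of the replicates coincided in part. At the 2213 shared sites 1757 (79.4%) held a footprint in both replicates, 384 in replicate 2 alone, 32 in replicate 1 alone and 40 in neither. Of 3790 footprints of replicate 1 in the stretch covered by both peaks, 2398 (63.3%) overlapped a footprint of replicate 2. Footprints of replicate 2 covered 21.2% of the bases there. The first share counts whole footprints overlapped by at least 1 bp and the second single bases. The second is therefore not the overlap to be reached by random placement, which was not computed. Among the shared sites with the most footprints, summed over the replicates, one near Tbl1xr1 at chr3:21935861-21936300 had 10 and 6, and one near the ribosomal protein gene Rplp1 at chr9:61753741-61754200 had 8 and 8. Both were at least 400 bp wide.

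With distance from protein-coding TSSs the sites became sparser and weaker. From the bin at 50 to 100 kb to the bin beyond 800 kb the density was 5.81, 3.82, 2.39, 1.42 and 0.542 per Mb in replicate 1 and 19.1, 14.0, 10.1, 6.46 and 2.99 per Mb in replicate 2. The median signal was 1.01, 0.919, 0.860, 0.766 and 0.648 in replicate 1 and 0.884, 0.777, 0.709, 0.641 and 0.534 in replicate 2. Both series fall at each step in both replicates. The share of replicate 2 peaks found in replicate 1 was 28.9% at 50 to 100 kb and 17.5% beyond 800 kb, and that with a footprint 83.3% and 69.9%. In replicate 1 sharing was 95.1% at 50 to 100 kb and 98.2% beyond 800 kb, with overlapping intervals.

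**Figure D3:**
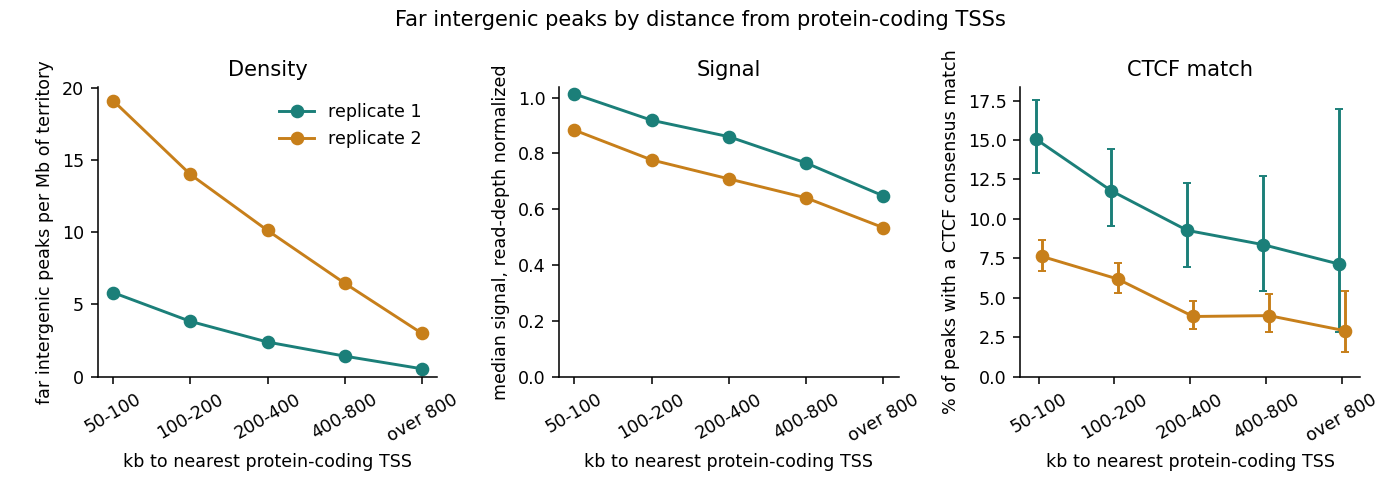
Far intergenic peaks of each replicate over 5 ranges of distance to the nearest protein-coding TSS, as peaks per Mb of territory, median read-depth normalized signal and percent with a CTCF consensus match in 200 bp. Bars in the last panel are 95% Wilson intervals; density and signal decline at each step in both replicates, down to 0.542 and 2.99 peaks per Mb.

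Some sites lay more than 2 Mb from any protein-coding TSS. The shared sites farthest away were at 2194.8 kb from Pik3c3 (signal 1.76 in replicate 1 and 2.50 in replicate 2), at 2140.3 kb from Cdh20, the region printed above (9.39 and 11.3), and at 2082.8 kb from Celf4 (0.648 and 1.00). The Cdh20 region was in the highest signal bin of both lists, and the site near Celf4 in the lowest bin of replicate 1 and the fifth of replicate 2. In the Cdh20 region 35.9% of the 31-base words occur more than once in the assembly, and in the other pair none do.

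Gaps between neighbouring protein-coding genes were then taken as the unit, and gaps of at least 500 kb were called gene deserts. There were 601, with a median size of 881 kb and a largest of 4668 kb. They held 1185 far intergenic peaks of replicate 1 (51.3%, 49.3 to 53.3%) and 4839 of replicate 2 (55.8%, 54.7 to 56.8%), where they make up 73.5% of the far territory. Far intergenic peaks were therefore less frequent in deserts than their share of the territory, in both replicates. The density fell with the size of the gap, with 7.01, 4.30, 3.43, 1.91 and 0.831 peaks per Mb in replicate 1 and 22.4, 15.9, 12.4, 8.48 and 4.26 per Mb in replicate 2 from gaps under 250 kb to gaps of 2 Mb and over. Median signal in these last gaps was 0.766 and 0.592, against 1.03 and 0.942 in gaps under 250 kb. Bounded by genes of any type instead, deserts held 4.20% and 5.14% of the peaks and 10.2% of the territory.

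**Figure D4:**
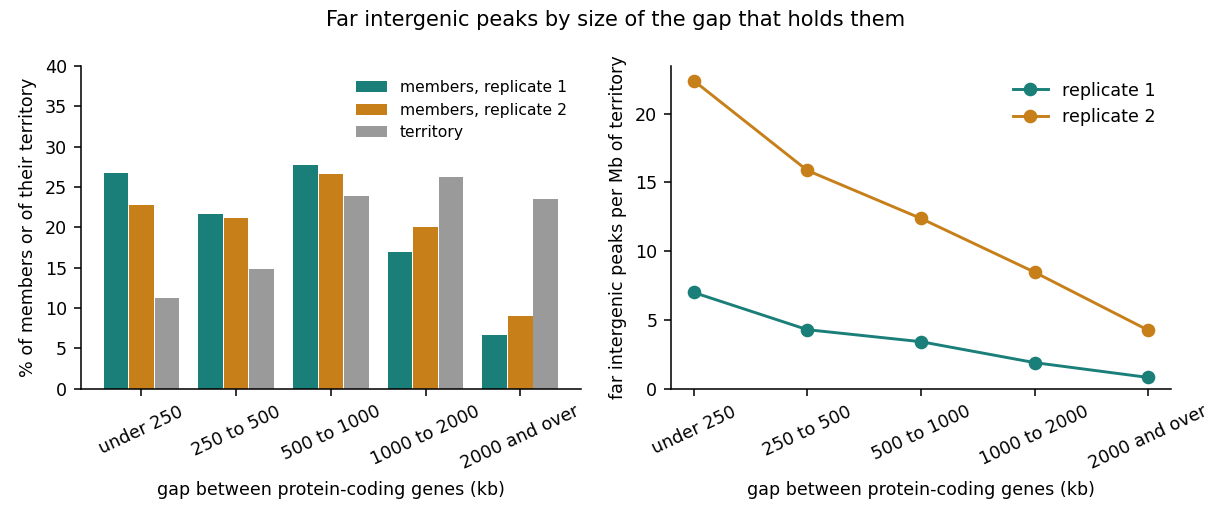
Far intergenic peaks by size of the gap between protein-coding genes that holds them. The left panel gives the percent of peaks of each replicate and of the territory, and the right panel peaks per Mb of territory; gaps of 2 Mb and over hold 23.5% of the territory and 6.62% and 9.05% of the peaks.

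Most deserts held sites, but unevenly. A site found in both replicates lay in 432 of the 601 deserts, and 34 held no far intergenic peak in either, 2 of which have no far territory. The desert between Kif2a, a kinesin that depolymerizes microtubules, and Ndufaf2, an assembly factor of mitochondrial complex I, held 12 shared sites. It lies at chr13:107022127-108002714, with 12 peaks in replicate 1 (signal 0.601 to 2.19) and 24 in replicate 2 (0.359 to 3.90), or 18.4 and 36.8 per Mb of territory. All 12 of replicate 1 were shared.

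The desert between Auts2, a neurodevelopmental gene, and Castor2, at chr5:132543345-134099710, had 13 peaks in replicate 1 and 37 in replicate 2, 12 of them shared in each. Between Celf2, an RNA-binding protein, and Gata3, a transcription factor, there were 11 and 24, and between Agtr1b, an angiotensin receptor, and Tbl1xr1, a subunit of nuclear receptor corepressor complexes, 10 and 33. The desert between the cadherin genes Cdh26 and Cdh4 had 10 and 24, or 11.5 and 27.5 per Mb, with 9 shared sites. The smaller desert between Prok2 and Rybp also had 9 shared sites, at a density of 26.5 and 44.2 per Mb, and was added here after its values were seen. In the first 5 of these deserts the median signal ran from 0.636 to 1.11 in replicate 1 and from 0.699 to 1.23 in replicate 2, around the medians of 0.919 and 0.767 over all far intergenic peaks. The largest desert with no far intergenic peak lay between Adam6a and Zfp386, 2501 kb on chromosome 12, followed by that between the transcription factor genes Hnf4g and Zfhx4, 1560.5 kb on chromosome 3. Only genes annotated as protein-coding bound these deserts. Genes of any other type can lie inside them, and peaks in such genes are not far intergenic.

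Part of the sites lay close to another. How close they would lie under random placement, or in the other peak classes, was not computed. Merged over the replicates the peaks formed 8699 places, of which 2171 held peaks of both replicates, 97 of replicate 1 alone and 6431 of replicate 2 alone. The median distance from a place to the next was 18.8 kb, and 3494 places (40.2%) had another within 10 kb, while 1469 (16.9%) had none within 100 kb. Runs of at least 3 places with steps of 10 kb or less numbered 397 and held 1392 places (16.0%). The largest run lay 93.1 to 98.9 kb from Tmem161b, at chr13:84344201-84350242, with 9 places in 6.04 kb. It held 7 peaks in replicate 1 and 11 in replicate 2, with a highest signal of 4.78 and 7.04. The next, near Lrrc74a at chr12:86795921-86807820, had 8 places with 3 and 8 peaks and a highest signal of 3.13 and 5.66.

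Nearest genes were assigned by TSS and say nothing of which gene a site acts on. The 8699 places had 2537 different nearest protein-coding genes, 12.2% of the 20807 on the autosomes, and 154 genes were nearest to at least 10 places each. Tbl1xr1 led with 27 places, 11 of them in both replicates, at 88.5 to 860.2 kb, and its strongest reached 2.16 in replicate 1 and 3.44 in replicate 2. The neuronal RNA-binding protein gene Celf4 had 21 places (5 in both), and Auts2 and Camk1g, a calmodulin-dependent kinase gene, had 20 each (6 and 5 in both). Kcnj2, an inward rectifier potassium channel gene, Nphp4, a ciliary protein gene, and Pik3c3, the gene of the class III phosphoinositide 3-kinase, had 19 each. Castor2, Celf2, the RNA helicase gene Dhx35 and the zinc finger homeobox gene Tshz3 had 18 each.

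The far territory nearest to a gene differed in size. Nphp4 had 44.8 places per Mb of its territory and Camk1g 35.5, whereas Pik3c3, with 2.32 Mb of territory, had 8.18. A peak midpoint within 500 bp of a TSS was present in both replicates at Tbl1xr1, Celf4, Auts2, Kcnj2, Pik3c3, Castor2 and Dhx35, in replicate 2 alone at Camk1g and Celf2 and in neither at Nphp4. Of the 1357 genes nearest to a far intergenic peak of replicate 1, 859 (63.3%, 60.7 to 65.8%) had such a promoter peak in that replicate. Of the 2997 genes that own far territory but no such peak, 1582 (52.8%, 51 to 54.6%) had one. In replicate 2 the counts were 1890 of 2530 (74.7%, 73.0 to 76.4%) and 1044 of 1824 (57.2%, 55 to 59.5%). In both replicates the share was higher in the genes with a far intergenic peak, and how much territory the genes own was not matched. Over all autosomal protein-coding genes it was 51.6% in replicate 1 and 60.7% in replicate 2.

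Gene lists were counted as nearest genes and set beside their share of the far territory. The longer lists were made from the first letters of gene symbols. The 224 adhesion and guidance genes, such as cadherins, ephrins and contactins, were nearest to 446 places (5.13%) but own 10.9% of the territory, led by Cdh5, an endothelial cadherin that is also in the vascular list, with 17 and by Cdh26, Cdh8 and the ephrin gene Efna5 with 14 each. The 218 receptor and channel genes had 191 places (2.20%) and 2.81% of the territory, led by Kcnj2 and the potassium channel gene Kcnj3 with 10. The 283 homeobox, forkhead, SOX and related factor genes had 466 (5.36%) and 4.64%, among them Tshz3 with 18, Foxa2 with 14 and Klf4 and Sox9 with 13 each. The 1512 chemosensory receptor genes, 7.28% of all genes, had 25 places (0.287%) and 0.707% of the territory, with the taste receptor gene Tas2r119 at 7. By density, in replicate 1 and replicate 2, the adhesion genes had 1.01 and 5.29 peaks per Mb of their territory and the factor genes 3.19 and 12.8, against 2.95 and 11.1 over all genes.

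The short cell type lists gave few places. Cortical projection neuron factors had 92 places (1.06%, for 0.971% of the territory), with the corepressor gene Tle4 at 15, Bcl11a and Pou3f3 at 10 each and Lmo4 at 9. Inhibitory neuron genes had 42 (0.483% and 0.566% of the territory), with Dlx2, a homeobox gene of interneurons, and Npy at 8 each. Astrocyte genes had 40 (0.460% and 0.363%), with Sox9 at 13 and Id4 at 11, and microglia genes 14 (0.161% and 0.153%), with Sall1 at 8. Vascular genes had 23 (0.264% and 0.120%), of which Cdh5 had 17. Activity-regulated genes had 27 (0.310% and 0.272%), with Inhba, a subunit of activin, at 9. Oligodendrocyte lineage genes had 5 (0.0575% and 0.0565%), with Pdgfra at 4, and housekeeping genes 7 (0.0805% and 0.0102%), all at Ywhaz. At Bcl11a all 10 peaks, with a highest signal of 1.44, were in replicate 2 alone, as were 6431 of all 8699 places, whereas 3 of the 5 places of the oligodendrocyte list were in both replicates. The list shares rest on few genes, so no order is read from them.

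Annotated genes of any type were closer. The median distance to the nearest gene was 29.3 kb in replicate 1 and 30.8 kb in replicate 2. That gene was a lincRNA, a long noncoding RNA gene between coding genes, for 33.9% and 31.7% of the peaks, a processed pseudogene for 25.2% and 29.3%, and protein-coding for 14.8% and 14.2%.

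The sequence of the sites differed from the territory around them. In 200 bp at the midpoint the median GC content was 51% in replicate 1 and 49% in replicate 2, against 59% and 55% in the other autosomal peaks and 39.5% in windows placed every 1 kb over the far territory. CpG dinucleotides averaged 4.54 and 3.44 per window, against 12.01 and 8.69 in other peaks and 1.26 in the territory. Soft-masked repeats covered a mean of 6.95% and 7.92% of the peak, against 39.0% of the territory windows. The sites were thus richer in GC and poorer in repeats than the territory, and poorer in GC than the other peaks.

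Exact matches on either strand were sought in these windows for 20 consensus motifs. The letters were TGANTCA for AP-1, TGACGTCA for the cyclic AMP response element (CRE), CAGATGG for the E-box of neurogenic bHLH factors, GCGTGGGCG for EGR, GGGGCGGGG for SP and KLF factors, TAATTA for homeobox factors and ACAATGG for SOX. Further letters were ATGCAAAT for POU, AAGGTCA for nuclear receptors, CCGGAAGT for ETS, GCGCATGCG for NRF1, GGAATGT for TEAD, TGTGGTT for RUNX, AGATAAG for GATA factors, GTAAACA for forkhead factors and AAGATGGCG for YY1. CTCF, MEF2, NFI and the RFX X-box were searched with degenerate motifs of at least 10 letters. A match is not a proven site, and its frequency depends on base composition.

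CTCF stood out against the territory and less against other distal peaks. A match was present in 280 far intergenic peaks of replicate 1 (12.1%, 10.9 to 13.5%) and 500 of replicate 2 (5.76%, 5.29 to 6.27%), and in 0.0482% of the territory windows. Near intergenic peaks had it in 19.98% and 13.2%, gene-body distal peaks in 16.3% and 8.08%, and peaks within 1 kb of a TSS in 1.95% and 1.98%. Spread over the signal bins as the far intergenic peaks are, near intergenic peaks would reach 15.9% and 9.17% and gene-body distal peaks 12.7% and 5.90%. Far intergenic peaks were thus below near intergenic peaks in CTCF matches also at like signal, and within their counting interval of the gene-body distal peaks. The share was 15.1% and 7.62% at 50 to 100 kb and 7.14% and 2.91% beyond 800 kb, with few peaks at the far end (4 and 9 with a match).

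Far intergenic peaks with a CTCF match were stronger and more often shared. Their median signal was 1.18 in replicate 1 and 1.30 in replicate 2, against 0.884 and 0.748 without a match. All but 1 of the 280 of replicate 1 were shared (99.6%, 98.0 to 99.9%), against 95.3% without a match, and 280 of the 500 of replicate 2 (56.0%, 51.6 to 60.3%), against 23.5%. A footprint was present in 94.6% and 96.4% of them, against 76.5% and 78.4%. Of the matches, 216 of 280 (77.1%) and 425 of 501 (84.8%) were centred in a footprint, where footprints cover 11.7% and 11.4% of the bases of these windows. At 209 of the 2213 shared sites the match lay in a footprint of both replicates, as in the Sestd1, 1810013L24Rik and Clvs1 regions printed above, where the signal was 4.45, 3.78 and 3.76 in replicate 1 and 6.06, 5.64 and 5.71 in replicate 2.

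The E-box and AP-1 motifs lay in footprints less often than CTCF. The neurogenic E-box was found in 291 peaks of replicate 1 (12.6%) and 1106 of replicate 2 (12.7%), against 3.42% of the territory, and near and gene-body distal peaks had 10.4% and 11.7% in replicate 1 and 10.8% and 11.8% in replicate 2. Its letters can fall inside a CTCF match: 31 of 312 and 51 of 1172 matches overlapped one, and 260 (11.3%) and 1057 (12.2%) of the peaks had a match outside. Of its matches 28.8% and 33.5% were centred in a footprint. AP-1, the motif of Fos and Jun dimers, was found in 253 (10.95%) and 1283 (14.8%), against 6.04% of the territory. Near and gene-body distal peaks had 8.14% and 9.24% in replicate 1 and 11.6% and 13.2% in replicate 2. Of the AP-1 matches 11% and 14.6% were in a footprint, where footprints cover 11.7% and 11.4% of the window bases. AP-1 was more frequent in the peaks of replicate 2 without a counterpart (16.1%) than in the shared ones (11.01%), but not in replicate 1 (9.28% without and 11.03% with a counterpart). CTCF was less frequent in peaks without a counterpart in both replicates (1.03% and 12.6% in replicate 1, 3.40% and 12.7% in replicate 2).

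Several AT-rich motifs were rarer in the peaks than in the territory, whose GC content is lower. Homeobox matches were in 3.59% and 4.02% of the peaks against 8.33%, MEF2 in 1.99% and 2.51% against 5.40%, and GATA in 1.56% and 1.88% against 3.12%. NFI was more frequent, with 1.13% and 0.968% against 0.0471%, as were the RFX X-box with 0.519% and 0.530% against 0.0504%, CRE with 0.476% and 0.334% against 0.0818% and EGR with 0.303% and 0.184% against 0.00408%. These last shares rest on few peaks, 26 and 84 for NFI and 7 and 16 for EGR. Set against other peaks the order differs: CRE, EGR and RFX matches were more frequent in each of the other 3 classes in both replicates, for CRE 0.663% and 0.495% in near intergenic peaks and 2.55% and 2.00% within 1 kb of a TSS. Homeobox matches were less frequent in each of them, with 2.70% and 2.78% in near intergenic peaks. NFI matches were too, with 0.638% and 0.464% in near intergenic and 0.918% and 0.879% in gene-body distal peaks. These gene-body distal NFI values lay within the counting intervals of the far intergenic peaks. So did the gene-body distal values for CRE and EGR, and for RFX the values of all 3 other classes, in both replicates. TEAD, RUNX, forkhead and POU matches were within 1.5 times of the territory in both replicates. The Irf2bp2, Atp23 and Gm14444 regions printed above reached 5.56, 4.94 and 3.57 in replicate 1 and 7.64, 3.58 and 3.75 in replicate 2. The 7.64 belongs to a replicate 2 peak that does not hold the NFI matches.

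**Figure D5:**
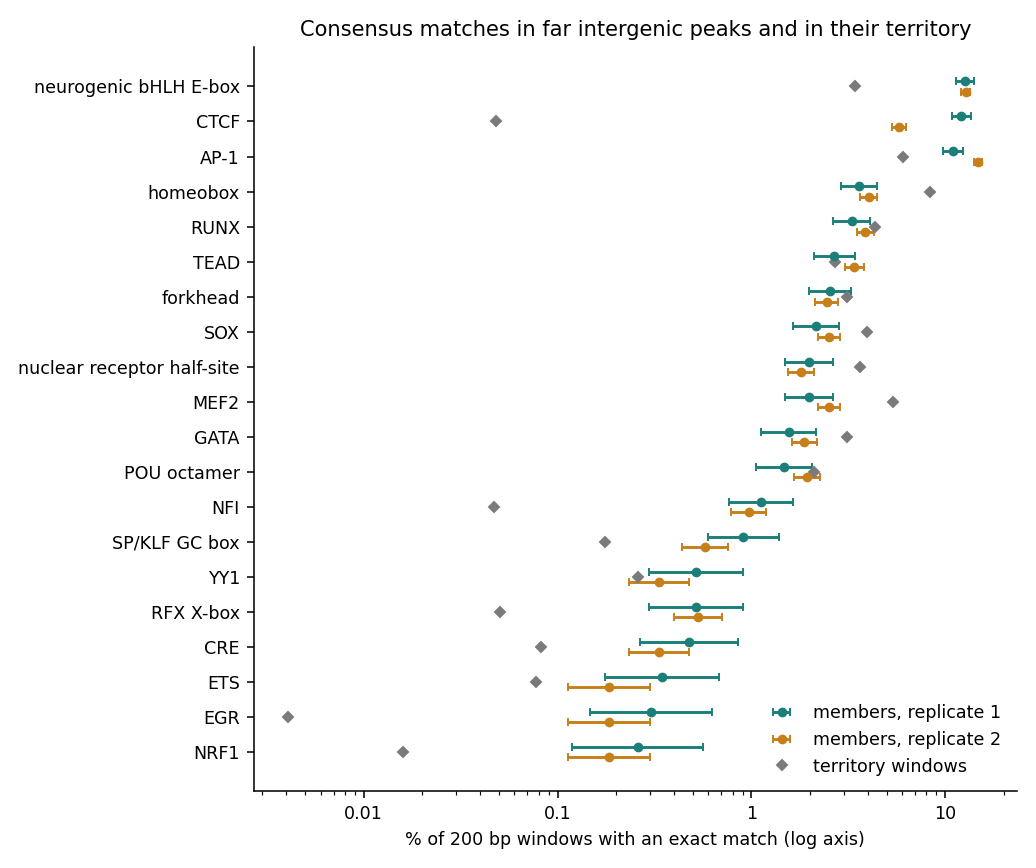
Percent of far intergenic peaks of each replicate with an exact match of each of 20 consensus motifs in 200 bp around the midpoint, with 95% Wilson intervals, and percent of 200 bp windows of the far territory, on a log axis. The CTCF match is in 12.1% and 5.76% of the peaks and in 0.0482% of the windows.

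The few sites of highest signal included repeated sequence. The highest in both replicates, at chr3:5860361-5860530 near Gm8797, reached 41.9 in replicate 1 and 44.1 in replicate 2, rank 3 in both lists. All of its 31-base words occur more than once in the assembly, with a median of 7 copies. Among the 5 highest of either replicate, those at chr8:20550141-20550420 near Gm21119 (6.61 and 10.9) and chr6:47748421-47748620 near Pdia4 (5.81 and 8.02) had 83.2% and 85.3% of such words, and that at chr6:47650741-47651000 near Ezh2 (8.24 and 12.7) had 29.6%. One of the highest in replicate 2 had none: at chr15:85634461-85634880 near Wnt7b, a signalling ligand gene, the signal was 3.98 in replicate 1 and 9.02 in replicate 2. The part of copy number in these signals was not tested.

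Over all far intergenic peaks repeated sequence was about as frequent as in the whole lists. At least 50% of the 31-base words occurred more than once in 33 peaks of replicate 1 (1.43%) and 67 of replicate 2 (0.772%), where 1.12% and 0.875% of all autosomal peaks were of this kind. Of the 43 and 67 far intergenic peaks in the highest signal bin, 6 and 4 were. Their median signal was 0.872 and 0.670, against 0.919 and 0.767 for the rest. Without them 96.0% and 25.2% of the far intergenic peaks were shared.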

How the data were processed

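Per the text listing deposited with the files, each library has 2 peak lists, a footprint list and a table of cleavage rates on mm10, made by the authors from that library's own alignments. Labels and files name no aligner or caller (not given in the sources used here). Signal per peak was normalized to read depth by the authors, and other score columns of the deposited lists are constant (0.01 for footprints). The p-value column of the deposited cleavage table is a false discovery rate that ends at 0.05.

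The list with fewer rows per library was used. Positions and sequence came from GENCODE M21 and GRCm38. Peaks were shared at an overlap of 1 bp; a footprint belonged to a peak that held its midpoint. In each list 20 and 132 far intergenic peaks overlapped another and were counted singly. Copy number was counted for words of 31 bases. The territory was sampled every 1 kb. Named genes were the 10 nearest to most places, with Tshz3 added for a tie, and up to 4 per list; named regions were the extremes of signal, sharing, footprints, distance and ratio. One region that this rule names is not reported here. The members, 12 gene lists, 20 motifs and named-gene rule were chosen with earlier results of these data known. Code was tested on simulated data. Python 3.11.15, pandas 2.3.3 and scipy 1.17.1 were used.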

Additional observations from a re-analysis of the deposited data

How the results depend on the processing

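No paired analysis was possible because there is 1 group. Values are means over the replicates unless a replicate is named. The number of far intergenic peaks, 5494, was 3560 with a limit of 100 kb and 12458 with the longer peak list, and 2310 to 8678 with either replicate alone. Their share of autosomal peaks, 10.7%, was 15.1% at 25 kb, 6.83% at 100 kb and 4.99% in the upper 50% of peaks by signal, and 7.97 to 13.4% with either replicate alone. Sharing was 67.5% (replicate 1) and 17.98% (replicate 2) with an overlap of 50% of both peaks, 97.6% and 54.8% with the longer list of the other replicate, and 57.1% and 73.4% at equal list length; at 100 kb it was 23.5% in replicate 2. The ratio of signal to that of other peaks, 0.629, was 0.582 with means and 0.742 against other distal peaks. The share with a footprint was 80.0% and the density 10.3 per kb with an overlap of 1 bp, and the share 98.9% in the upper 50% by signal. Deserts held 26.4% of the peaks with gaps of 1 Mb and 4.67% with gaps between genes of any type. The density ratio of far territory to the rest, 0.248, was 0.471 with territory over 1 kb from a TSS. The other 13 settings, among them those without repeated sequence (chosen after seeing the data), stayed within 1.5 times for counts and within the spread or interval for other values.

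Replicate 2 has more peaks than replicate 1, and its peaks without a counterpart have low signal. Whether depth has a part in this difference was not tested. Shares with a footprint and shared peaks follow signal, so far intergenic peaks and other peaks compare differently with and without signal bins. With 2 samples of 1 group nothing can be tested between conditions.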
